A study of Mus musculus with 4 samples.

Results

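The regulators of G-protein signalling, the RGS genes, were followed in mouse lung after Sugen and hypoxia. Rgs1, Rgs2, Rgs3, Rgs4, Rgs5, Rgs6, Rgs9, Rgs10, Rgs16 and Rgs18 were taken by symbol, 10 of the 47729 genes in the deposited tables, and all 10 passed the filter on low counts that left 18783 genes. They had been selected on earlier results of the same contrast, normoxic against Sugen-hypoxic CPM, so the values of these genes are given as a description and carry no test. CPM are reads of a gene per 1e6 gene reads of its library.

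RGS proteins bind the active, GTP-bound alpha subunit of a heterotrimeric G protein and speed the hydrolysis of its GTP, which ends the signal of the receptor upstream. In the vessel wall this shortens the response to constrictors such as endothelin and angiotensin. Rgs5 is known as a marker of pericytes and arterial smooth muscle, the mural cells that wrap the endothelium.

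Whole-lung RNA of BL/6 mice with the genotype Control (Rosa) was sequenced in 4 libraries, 2 normoxic and 2 Sugen-Hypoxic, where Sugen is a compound that blocks VEGF receptors and was combined with low oxygen. Each library was labelled with several animals and was taken as a pool: 3 females in normoxic replicate 1, 1 female and 2 males in normoxic replicate 2, and 2 males in each Sugen-hypoxic replicate. Treatment and the sex of the pools therefore overlap in large part, with males in 1 of the 2 normoxic pools and no females in the treated ones, and no library had Sugen or hypoxia alone. The labels give no age, dose or duration. The mutant arm for KCNK3 that the series names was not analysed here, and the control genotype is common to all 4 libraries.

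The libraries held 57319562 to 67135829 gene counts, so 1 CPM stands for 57.32 to 67.14 reads. Of the counts between 1 and 40, 79.65 to 83.29% were even numbers in each library, so low counts came mostly in steps of 2 reads, and counting error is larger than the read number alone would give. The source label is lung while the extraction text names kidneys. The surfactant gene Sftpc, a marker of lung alveolar type 2 cells, stood at 11239 to 12003 CPM. The kidney markers Umod, Slc12a1, Nphs1 and Slc34a1 were each at or under 0.122 CPM and Aqp2 at or under 0.240 CPM, while Cdh16, the most abundant of the kidney list, was at 8.65 to 11.2 CPM.

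Of the 10 genes, 6 lie on chromosome 1 (GRCm38), where 6.55% of the tested genes lie. Rgs5 (ENSMUSG00000026678, chromosome 1, 169655501 to 169695813, plus strand) and Rgs4 (ENSMUSG00000038530, 169741477 to 169747642, minus strand) are next to each other, with 45663 bases between their facing 3′ ends and no other gene of the tables in that gap. Rgs2, Rgs1 and Rgs18 lie together at 143999338 to 144775435, and Rgs16 (ENSMUSG00000026475) lies at 153740349 to 153745468. The others are on chromosomes 4 (Rgs3), 7 (Rgs10), 11 (Rgs9) and 12 (Rgs6).

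The promoters of the 3 genes with the highest fold changes, Rgs5, Rgs4 and Rgs16, are shown with that of Rgs2, whose libraries overlapped. Each is the 250 bases before the RefSeq start site (GRCm38.p6), 5′ to 3′ on the gene's strand. Capitals mark matches, on either strand, to ACGTG (the core bound by HIF, the hypoxia-inducible factor), GCGTG (bound by the aryl hydrocarbon receptor, and 1 form of the HIF core), GTGGGAA (RBPJ, of the Notch pathway), GGAATG (TEAD), the CArG box of smooth muscle genes, CCAAT and TATAAA. The last 2 were added after the sequences had been seen. The windows are chr1:169655251-169655500 for Rgs5 (plus strand), chr1:169747643-169747892 for Rgs4 (minus), chr1:153740103-153740352 for Rgs16 (plus) and chr1:144004150-144004399 for Rgs2 (minus).
Rgs5: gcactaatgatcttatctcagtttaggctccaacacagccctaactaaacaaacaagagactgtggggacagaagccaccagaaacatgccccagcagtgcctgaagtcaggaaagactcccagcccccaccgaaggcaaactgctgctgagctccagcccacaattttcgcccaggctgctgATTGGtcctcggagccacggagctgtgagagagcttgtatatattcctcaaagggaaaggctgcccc
Rgs4: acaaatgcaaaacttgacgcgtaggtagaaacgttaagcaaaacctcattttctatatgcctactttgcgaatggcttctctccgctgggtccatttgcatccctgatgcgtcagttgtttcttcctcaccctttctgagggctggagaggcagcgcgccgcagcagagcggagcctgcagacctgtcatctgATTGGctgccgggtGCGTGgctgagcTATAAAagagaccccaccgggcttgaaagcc
Rgs16: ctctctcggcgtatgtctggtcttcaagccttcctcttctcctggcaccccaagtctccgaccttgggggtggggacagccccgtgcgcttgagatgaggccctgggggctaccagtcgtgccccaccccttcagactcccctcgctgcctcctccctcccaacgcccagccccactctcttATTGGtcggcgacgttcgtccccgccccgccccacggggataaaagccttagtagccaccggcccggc
Rgs2: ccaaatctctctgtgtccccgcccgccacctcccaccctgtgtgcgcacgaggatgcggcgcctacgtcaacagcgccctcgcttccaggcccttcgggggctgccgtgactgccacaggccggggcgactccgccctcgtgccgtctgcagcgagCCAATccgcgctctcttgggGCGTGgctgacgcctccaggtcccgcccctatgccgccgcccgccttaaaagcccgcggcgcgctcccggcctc

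All 4 windows hold a CCAAT match, which starts 67, 57, 68 and 94 bases before the start site in Rgs5, Rgs4, Rgs16 and Rgs2. Of all 32817 windows of this length, 33.8% hold it. GCGTG was found in Rgs4 and Rgs2 (28.1% of all windows) and TATAAA in Rgs4, 31 bases before the start (12.4%). RefSeq windows were found for 8 of the 10 genes, 9 windows in all. CCAAT is in 5 of the 9, the other being that of Rgs9, and TATAAA also in those of Rgs3 and Rgs9. None of the 9 holds ACGTG (16.6% of all windows) or the CArG box (1.47%), GTGGGAA was found in Rgs9 (5.42%) and GGAATG in Rgs6 (12.6%). A match of letters is a description of the window and no evidence of binding.

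In normoxic lung the RGS genes covered a wide range of levels. Per kb of exon, which allows genes to be compared, Rgs2 led at 21.02 ± 2.05 CPM per kb (SD, n = 2). Rgs2, of the small R4 proteins, acts mainly on Gq, the G protein of many constrictor receptors. Rgs10 (9.49), Rgs3 (6.32) and Rgs4 (5.08) followed, each with its normoxic libraries apart from those of the next gene. Rgs5 came next at 2.60 ± 0.364, and its normoxic libraries overlapped with those of Rgs9 (2.46), as those of Rgs9 did with Rgs18 (2.19). Rgs6 (1.61), Rgs1 (0.717) and Rgs16 (0.536) were lowest, with no overlap between neighbours. With the longest transcript as the length in place of all exons, 6 of the 10 kept their place, and Rgs5 and Rgs9 changed places, as did Rgs6 and Rgs18.

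After Sugen and hypoxia Rgs5 went from rank 5 to rank 2 in the length-scaled order and Rgs4 from 4 to 3, Rgs16 went from 10 to 8, and Rgs10 and Rgs3 moved down to 4 and 5. Rgs5 at 14.7 ± 1.90 and Rgs4 at 14.7 ± 2.48 CPM per kb now came after Rgs2 at 18.3 ± 1.98, and Rgs10 followed at 10.04 ± 1.43. The treated libraries of Rgs5 and Rgs4 overlapped, so their order is within the spread of the pools. Both genes lay below Rgs2 and above Rgs10 in each treated library. These ranks use all exons as the length, and the places of Rgs10 and Rgs3 depend on it. With the longest transcript, 880 bases for Rgs10 in place of 1711, Rgs10 lay above both genes in each treated library. For Rgs3 that length is 4698 bases in place of 10801, and its treated libraries then overlapped with those of Rgs5 and Rgs4. Without scaling by length, Rgs5 made up 5.13% of the summed CPM of the 10 genes in normoxia and 22.2% after treatment.

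**Figure D1:**
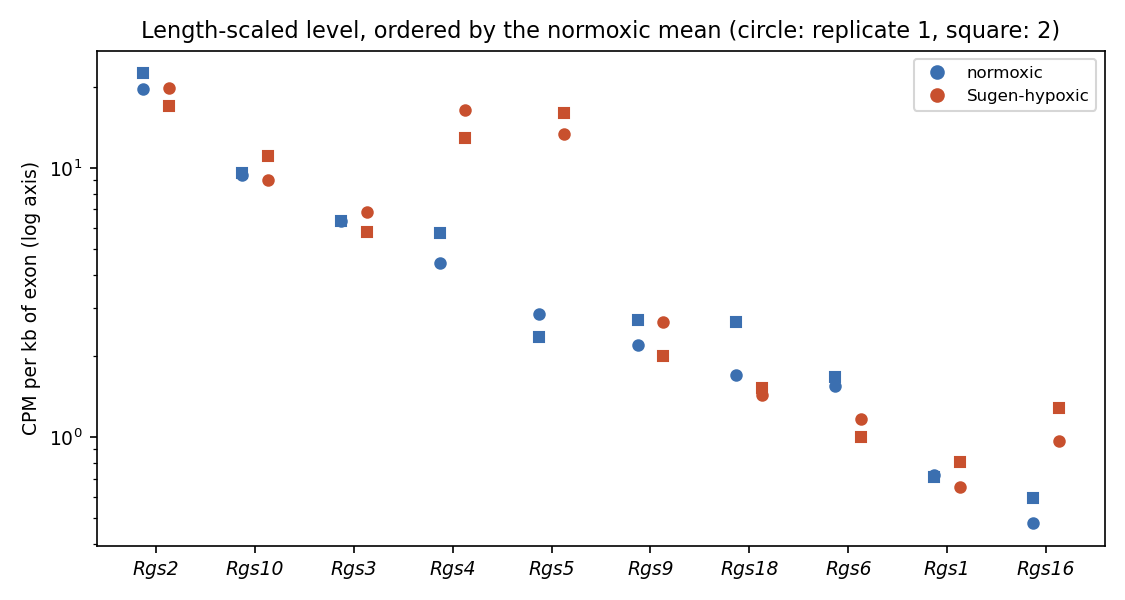
CPM per kb of exon on a log axis for the 10 RGS genes, ordered by the normoxic mean, with normoxic libraries in blue and Sugen-hypoxic libraries in red. With all exons as the length, Rgs5 and Rgs4 move from the middle of the order to just below Rgs2. The red and blue points of Rgs3, Rgs9 and Rgs10 lie together.

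Rgs5, the mural cell member, was at 13.003 and 10.7 CPM in normoxic replicates 1 and 2 and at 60.6 and 72.8 CPM in Sugen-hypoxic replicates 1 and 2. The treated libraries were both far above the normoxic ones. The fitted log2 fold change was 2.56 ± 0.13 (SE), a 5.90-fold higher level, on 621 to 4757 reads per library. It ran from 2.42 to 2.87 over 11 alternative processings, the highest when the fit took in the share of males in each pool. Both treated pools were all male, so that fit took its sex effect from the normoxic pair alone. For every gene its value extends the difference between the normoxic pools to all-male pools, and does not separate sex from treatment.

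Rgs4, an R4 protein that acts on Gi and Gq and is best known from neurons and heart, was at 13.7 and 17.7 CPM in normoxia and at 50.9 and 39.97 CPM after treatment. Again the groups did not overlap, and the log2 fold change was 1.60 ± 0.17, 3.03-fold. It was 1.26 with the share of males as a covariate and 1.40 to 1.79 with a library left out. The pools did not order the neighbours alike: Rgs5 was higher in treated replicate 2 and Rgs4 in treated replicate 1, and the length-scaled Rgs5 to Rgs4 ratio was 0.646 and 0.410 in normoxia and 0.812 and 1.24 after treatment.

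Rgs16, an R4 protein of liver and lymphocytes among other cells, stood at 1.12 and 1.39 CPM in normoxia and at 2.25 and 2.9995 CPM after treatment. Both treated libraries were higher, by a log2 fold change of 1.13 ± 0.27, on 75 to 196 reads. The value went to 0.84 ± 0.55 with the male fraction as a covariate and to 0.93 without treated replicate 2.

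**Figure D2:**
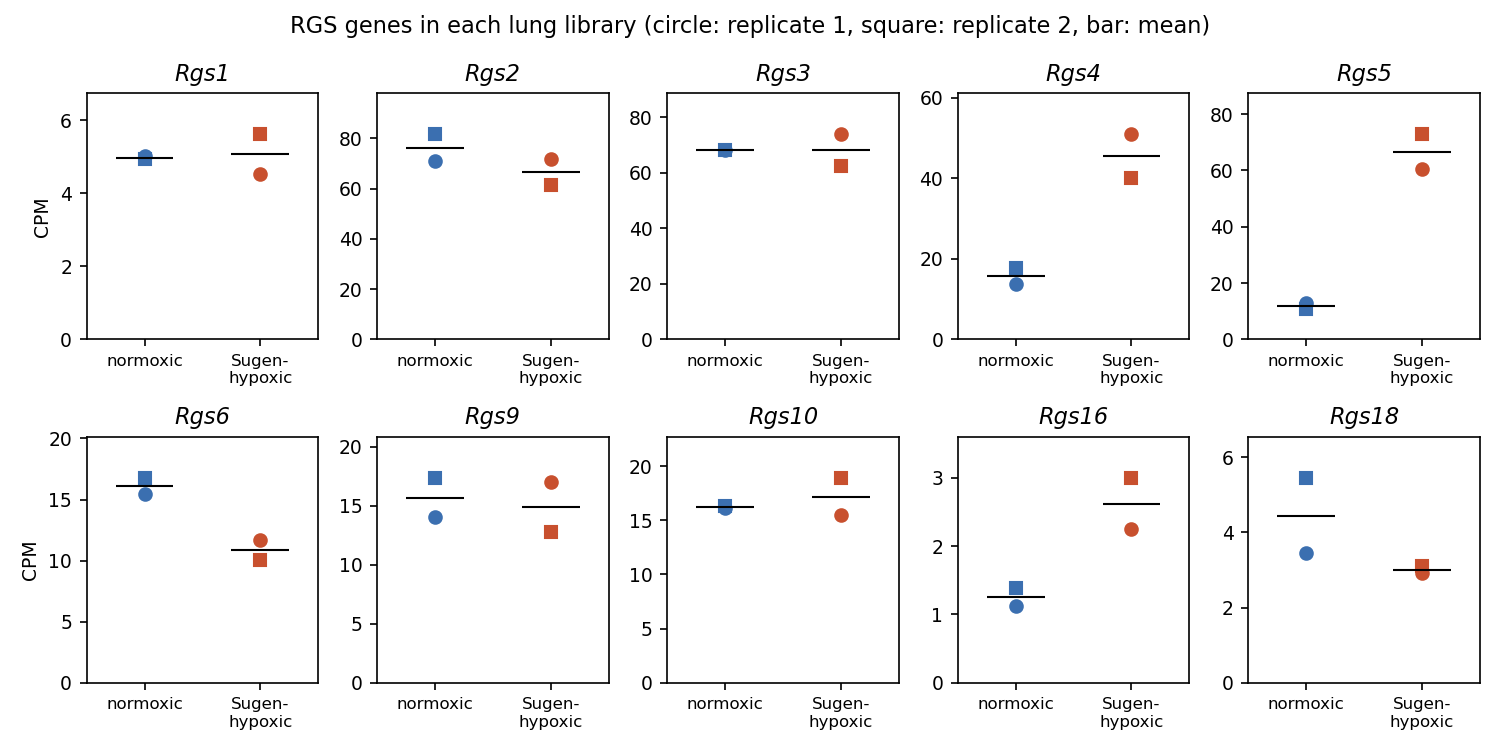
CPM of each RGS gene in the 4 libraries, with a bar at each group's mean and its own linear axis from 0 for each gene. Treated points lie above both normoxic points for Rgs4, Rgs5 and Rgs16, below them for Rgs6 and Rgs18, and among them or on either side of them for the others.

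On the other side, Rgs6 and Rgs18 had both treated libraries below the normoxic ones. Rgs6, an R7 protein that pairs with the G beta subunit Gnb5 and is known for braking muscarinic slowing of the heart, was at 15.4 and 16.8 CPM in normoxia and at 11.7 and 10.04 CPM after treatment, a log2 fold change of -0.50 ± 0.12. Rgs18, of platelets and myeloid cells, was at 3.44 and 5.44 CPM in normoxia and at 2.91 and 3.09 CPM in the treated pools. The difference, a log2 fold change of -0.49 ± 0.26, rested on normoxic replicate 2 and was -0.14 without it, while the male fraction as a covariate gave -1.11.

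The remaining 5 genes overlapped between the groups. Rgs2 was at 71.0 and 81.5 CPM in normoxia and at 71.6 and 61.4 CPM after treatment. Rgs3, a longer R4 family member with several isoforms, was at 68.3 in both normoxic libraries and at 73.8 and 62.3 CPM after treatment. Rgs9 (R7, known from striatum and photoreceptors), Rgs10 (R12, of immune cells and neurons) and Rgs1 (R4, of lymphocytes) had log2 fold changes of -0.01, 0.15 and 0.09. The signs of Rgs1, Rgs3 and Rgs9 turned under some alternatives: Rgs3 was -0.01 with library size alone and -0.08 without treated replicate 1, Rgs1 was -0.05 without treated replicate 2, and Rgs9 ran from -0.29 to 0.20.

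**Figure D3:**
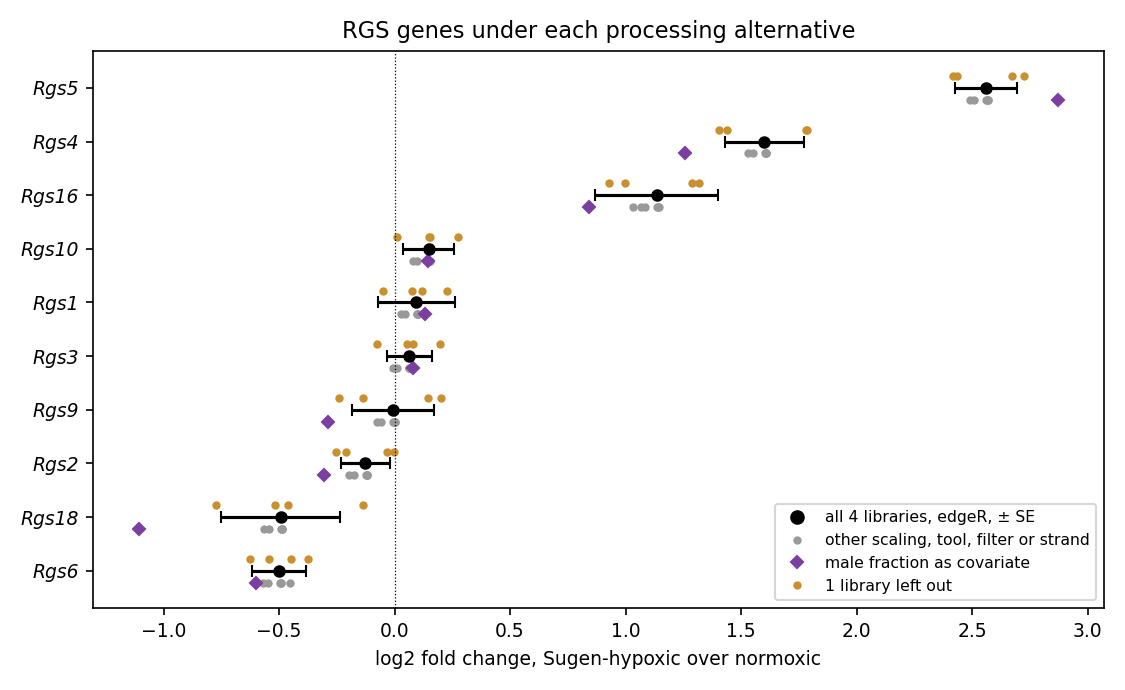
Log2 fold change of each RGS gene, Sugen-hypoxic over normoxic, with its SE (black), under other scaling, tool, filter or strand (grey), with the male fraction as a covariate (purple) and with 1 library left out (orange). Rgs5, Rgs4, Rgs16 and Rgs10 stay above 0 and Rgs6, Rgs18 and Rgs2 below 0 at every point drawn. Rgs10 and Rgs2 come close to 0, at 0.012 and -0.004. Rgs1, Rgs3 and Rgs9 have points on either side.

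Taking all libraries, edgeR's quasi-likelihood test with Benjamini-Hochberg adjustment called 11.5% of the 18783 genes at an adjusted p under 0.05, 5.51% as higher and 6.01% as lower. Of the 10 RGS genes, Rgs5 and Rgs4 were among the genes called, both as higher. Without overlap between the groups in CPM, 21.3% of all tested genes were higher and 40% lower in the treated libraries, against 3 and 2 of the 10. The contrast had served to choose the genes, so nothing is read from either count. The median log2 fold change was 0.08 for the 10 and -0.00 for all genes tested. The p-values rest on how far these pools differ from each other and on nothing wider.

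By root mean square difference of centred log2 CPM over the 4 libraries, the genes closest to Rgs5 among 14890 were Cdh26 (a cadherin, difference 0.115), Frmpd3 (0.133), Cemip (a hyaluronan-degrading protein, 0.175), Eln (elastin, 0.198) and Clca2 (0.202). Eln was at 214 and 202 CPM in normoxia and at 1223 and 1752 CPM after treatment. The other 4 were low, with Cdh26 at 0.477 and 0.344 CPM in normoxia and 2.18 and 2.25 CPM after treatment. The next coding genes outside the Rgs5 and Rgs4 pair did not pass: Nuf2, a kinetochore gene, was at 0.79 ± 0.58 (adjusted p = 0.406) and Ccdc190 at 0.80 ± 0.55 (adjusted p = 0.377). Nuf2 had 1.64 and 6.18 CPM in the treated libraries, which lay on either side of the normoxic 2.20 and 2.52.

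Some markers of mural cells were also higher after treatment. In whole tissue, more cells of a type and more RNA per cell cannot be told apart. Of 10 pericyte markers 3 rose (edgeR, adjusted over all genes, of which 5.51% were called higher): Higd1b by 0.98 ± 0.12 (adjusted p = 0.0109), Notch3 by 0.66 ± 0.12 and Cspg4 by 0.63 ± 0.11. Pdgfrb, a PDGF receptor in the same list, was at 255 and 259 CPM in normoxia and 273 and 255 CPM after treatment (0.11, adjusted p = 0.350). Kcnj8 and Abcc9, subunits of the pericyte potassium channel, were at 0.20 and 0.07 and did not pass. The list summed to 726 and 731 CPM in normoxia and 982 and 847 CPM after treatment, and no marker was at 0. Neither Rgs5 nor Rgs4 is in this list. Set against its sum, Rgs5 equalled 1.79 and 1.46% in normoxia and 6.17 and 8.59% after treatment, and Rgs4 equalled 1.89 and 2.43% against 5.18 and 4.72%.

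Of 8 smooth muscle markers 5 rose, Tagln (0.81 ± 0.07), Acta2 (0.64 ± 0.11), Smtn (0.44), Des (0.33) and Lmod1 (0.33), of which Lmod1 did not pass with upper-quartile factors (adjusted p = 0.0545) or library size alone (0.0552). Mylk, the myosin light chain kinase and the most abundant of them, was at -0.03 with both treated libraries lower and did not pass, and Myh11 and Cnn1 overlapped between the groups. They summed to 1514 and 1628 CPM in normoxia and 1811 and 1885 CPM after treatment, and Rgs5, which is not in the list, equalled 0.859 and 0.655% of that sum in normoxia and 3.34 and 3.86% after treatment. The smooth muscle sum and Rgs5 were higher in treated replicate 2, and the pericyte sum and Rgs4 in treated replicate 1. The normoxic pair did not repeat this pairing. There both sums and Rgs4 were higher in replicate 2, and Rgs5 in replicate 1. The part of these cells in the Rgs5 and Rgs4 values was not tested. Among 7 endothelial markers Cdh5 and Tie1 rose by 0.59 and 0.59, Tie1 not with upper-quartile factors (adjusted p = 0.0543). The sum went from 3776 and 3864 to 5072 and 4300 CPM. The other 5 did not pass. Of these, Pecam1, Cldn5 and Tek had both treated libraries higher, and Egfl7 overlapped between the groups (0.12). Kdr had both treated libraries lower, at 576 and 574 CPM in normoxia and 516 and 445 CPM after treatment (-0.19). In fits without normoxic replicate 1 or without normoxic replicate 2, none of the markers of these 3 lists passed (12 and 11 had an unadjusted p under 0.05).

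**Figure D4:**
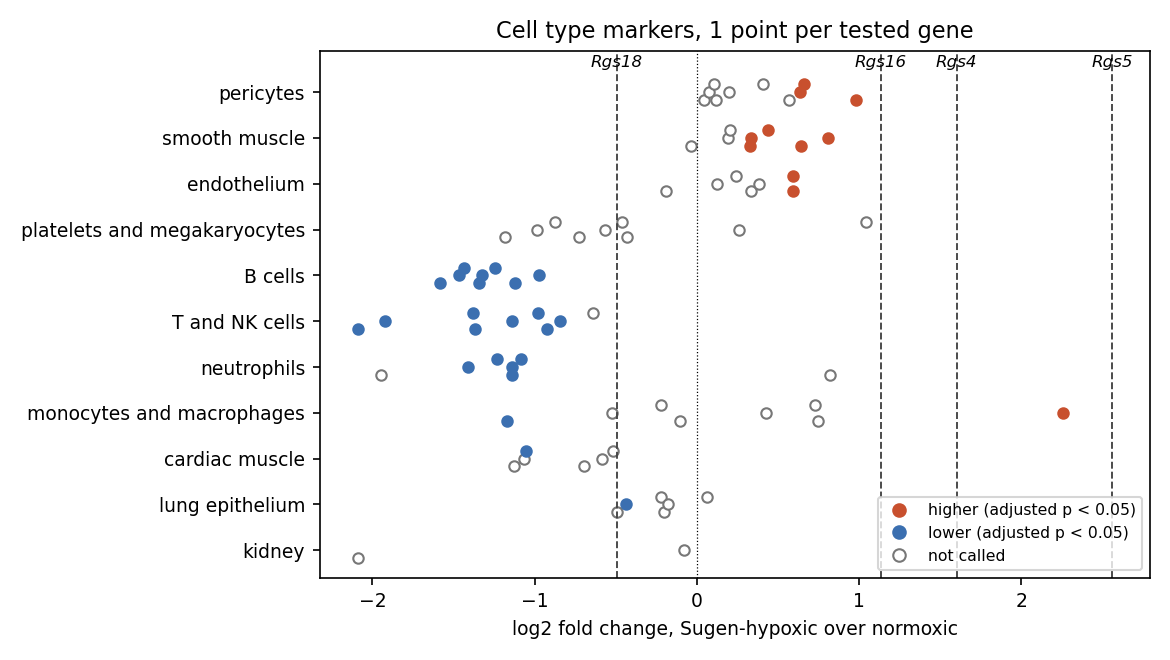
Log2 fold change of each tested cell type marker by list, filled red where called as higher and blue where called as lower, with dashed lines at Rgs18, Rgs16, Rgs4 and Rgs5. The pericyte, smooth muscle and endothelial points all lie at 0.98 or less, and the lymphocyte points lie below -0.6.

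Rgs18, Rgs1 and Rgs10 are known from blood cells, whose markers were read beside them. The 9 platelet markers summed to 27.9 CPM in normoxic replicate 1, 61.45 in normoxic replicate 2, and 32.3 and 42.7 CPM after treatment. The sum and Rgs18 were both highest in normoxic replicate 2. In normoxic replicate 1 they differed, with the sum below both treated libraries and Rgs18 above both. Pf4 had both treated libraries higher, at 5.14 and 8.86 CPM in normoxia and 8.98 and 18.5 CPM after treatment. None passed edgeR's test, Itga2b, the most abundant, at -0.43 included (2 had an unadjusted p under 0.05, and DESeq2 called 0), and their median of -0.56 turned to 0.19 without normoxic replicate 2. Rgs18, not in the list, equalled 12.3 and 8.86% of that sum in normoxia and 9.01 and 7.24% after treatment. The 7 neutrophil markers, of which 5 fell, with S100a9, the most abundant, at -1.14 ± 0.19, summed to 427 and 579 CPM in normoxia and 253 and 212 CPM after treatment. Mmp8 lay on the other side, at 15.8 and 18.9 CPM in normoxia and 21.9 and 36.7 CPM after treatment (0.82, adjusted p = 0.0826), and DESeq2 called 1 neutrophil marker as higher.

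All 8 B cell markers fell, where 6.01% of all genes were called lower, with Pax5 at -1.59 ± 0.11 and Cd79a at -1.43 ± 0.12, and 8 of 9 T and NK cell markers fell, with Ncr1 at -2.09 ± 0.27, while Cd4, the most abundant, did not pass (-0.64, adjusted p = 0.0647). Their sums went from 301 and 283 to 98.2 and 121 CPM and from 61.0 and 55.0 to 24.1 and 27.3 CPM. Rgs1, at 5.02 and 4.95 CPM in normoxia and 4.54 and 5.62 CPM after treatment, equalled 1.67 and 1.75% of the B cell sum, which does not hold it, in normoxia and 4.62 and 4.65% after treatment. Without normoxic replicate 1 none of the markers of these 2 lists passed (16 had an unadjusted p under 0.05), and without normoxic replicate 2 4 B cell markers passed. Of 8 monocyte and macrophage markers Chil3 rose by 2.26 ± 0.46 and Ccr2 fell by 1.17, and the other 6 did not pass. Chil3 was at 684 and 601 CPM in normoxia and at 1545 and 4337 CPM after treatment. Adgre1, Mrc1 and Itgax had both treated libraries higher, Csf1r and Cx3cr1 had both lower, and Marco overlapped between the groups. The part of these cells in the RGS values was not tested.

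Markers of cardiac muscle were read in all libraries, and Rgs6 is known from the heart. The 6 cardiac markers summed to 586 and 544 CPM in normoxia and 216 and 367 CPM after treatment. All 6 had both treated libraries below the normoxic ones, as did 40% of all genes tested, and Myl7 passed (-1.05 ± 0.19, adjusted p = 0.0256), while Myh6, the most abundant, did not (-1.13 ± 0.26, adjusted p = 0.0519). DESeq2 called 3 of the 6, and with normoxic replicate 1 or 2 left out edgeR called 0 (2 and 3 had an unadjusted p under 0.05). Rgs6, not in the list, equalled 2.64 and 3.08% of the sum in normoxia and 5.40 and 2.73% after treatment. The part of cardiac muscle cells in the Rgs6 values was not tested.

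The 11 other RGS genes are those left of a family list after the 10 had been chosen on this contrast, so their directions depend on that choice and are given as single values. Of the 8 that were tested 2 fell and 6 did not pass. Rgs22, a large RGS-domain protein of testis and ciliated cells, went from 12.7 and 13.04 to 5.84 and 8.03 CPM (-0.82 ± 0.16, edgeR adjusted p = 0.0333), and Rgs11, an R7 protein, from 18.6 and 19.8 to 11.5 and 10.4 CPM (-0.74 ± 0.10, adjusted p = 0.0131). The ciliated cell factor Foxj1 fell as well, from 110 and 97.6 to 69.2 and 77.1 CPM (-0.44 ± 0.09, adjusted p = 0.0329). It is 1 of 6 lung epithelium markers, of which the other 5 did not pass, and the list holds no other ciliated cell marker. The part of ciliated cells in the Rgs22 value was not tested.

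Values of -0.47 for Rgs14 (adjusted p = 0.0699), -0.26 for Rgs12, the most abundant of the list at 131 CPM in normoxia, -0.36 for Rgs7, -0.65 for Rgs20, -0.25 for Rgs17 and -0.08 for Rgs19 did not pass. Rgs8 and Rgs13 were at or under 0.119 CPM and Rgs21, a taste cell gene, had 0 reads. Without normoxic replicate 1 or 2, or with the male fraction as a covariate, neither Rgs11 nor Rgs22 passed.

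Across the 9 lists of G-protein regulation, these other RGS genes included, 77 of 88 genes were tested and 15 passed, 7 higher and 8 lower, with a median log2 fold change of -0.00. That is beside 11.5% called of all genes tested. The 15 changed by 0.26 to 0.89 on the log2 scale in either direction.

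G alpha subunits, the direct substrates of RGS proteins, were split. Gna14, a Gq-class subunit, rose from 15.9 and 14.8 to 20.2 and 20.6 CPM (0.48 ± 0.08, edgeR adjusted p = 0.0247), and Gnai1, a Gi subunit, rose by 0.35 ± 0.08, a call lost under upper-quartile scaling (adjusted p = 0.0600) and by library size alone (0.0571). Gnao1, the Go subunit of nerve and heart, fell from 34.5 and 37.0 to 19.4 and 17.3 CPM (-0.89 ± 0.09, adjusted p = 0.00765). The other 10 tested did not pass, among them Gnas, the Gs subunit and the most abundant at 866 CPM in normoxia (0.05), and the Gi and Gq subunits Gnai2 (0.18) and Gnaq (0.18).

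Of the 12 beta and gamma subunits tested, Gng12 rose by 0.51 ± 0.05 (adjusted p = 0.00794) and Gng11, an endothelial gamma subunit, by 0.45 ± 0.10. Gng2 fell from 64.3 and 55.4 to 34.6 and 33.9 CPM (-0.74 ± 0.09). Gng11 did not pass with upper-quartile factors (adjusted p = 0.0583) or library size alone (0.0571). Gnb1, the most abundant, was at 0.19 and did not pass. Of the partners of R7 proteins, Gnb5 was at -0.06, Rgs7bp, a membrane anchor, at 0.47 (adjusted p = 0.104), and Rgs9bp at 0.22, so none of 3 passed (1 had an unadjusted p under 0.05, and DESeq2 called 0).

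Receptors are also switched off by kinases and arrestins. Arrb1, beta-arrestin 1, rose from 489 and 476 to 737 and 664 CPM (0.61 ± 0.09, edgeR adjusted p = 0.0156), and Grk2, a receptor kinase, fell from 177 and 175 to 132 and 132 CPM (-0.34 ± 0.05, adjusted p = 0.0199), with 5 of 7 not passing. Of 9 genes with an RGS-homology domain Arhgef12 and Arhgef1 fell by 0.36 and 0.29. Among 13 effectors Adcy3 rose by 0.63 ± 0.06 and Adcy8 fell by 0.52 ± 0.08, both adenylyl cyclases, while Adcy4, the most abundant by the mean of all 4 libraries, was at 0.25 and did not pass. None of 5 other regulators passed (1 had an unadjusted p under 0.05, and DESeq2 called 0), but 1 was called lower with upper-quartile factors, library size alone or no expression filter, with Ric8a, a chaperone of alpha subunits, at 0.01.

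**Figure D5:**
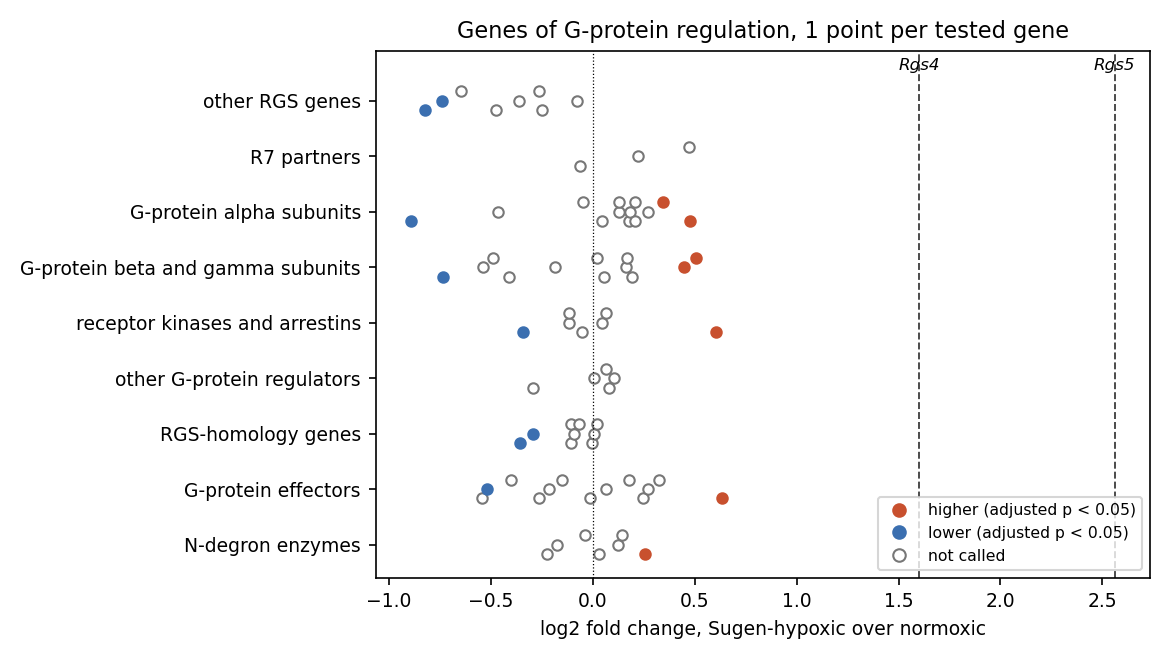
Log2 fold change of each tested gene of the G-protein lists, filled red where called as higher and blue where called as lower, with dashed lines at Rgs4 and Rgs5. All points lie between -0.89 and 0.63. The lines mark genes that were chosen on this contrast, so nothing is read from their distance to the points.

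The proteins of Rgs4, Rgs5 and Rgs16 are known substrates of the N-degron pathway, in which oxygen or nitric oxide leads to oxidation of an N-terminal cysteine and then to degradation. RNA counts do not measure that step. Of its 7 enzyme genes Metap2, which removes the first methionine, rose by 0.26 ± 0.05 (adjusted p = 0.0355), a call lost under upper-quartile scaling (0.0607) and by library size alone (0.0763). Either of these scalings called 0 of the 7 as higher and 2 as lower. Ado, the cysteine dioxygenase that senses oxygen, was at 41.9 and 37.5 CPM in normoxia and 40.8 and 42.9 CPM after treatment (0.14, adjusted p = 0.286). Ate1, the arginyl transferase, was at 0.03 and the ligase gene Ubr4, the most abundant, at -0.22 (adjusted p = 0.0730), and neither passed. Without normoxic replicate 1, without normoxic replicate 2 or with the male fraction as a covariate, none of the 15 genes of these lists passed (17, 18 and 9 genes of the lists had an unadjusted p under 0.05).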

How the data were processed

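RNA sequencing counts from 4 pooled lung libraries, 2 normoxic and 2 Sugen-hypoxic, were grouped by the treatment label. The values the authors deposited are raw counts of reads for each gene, and STAR 2.5.1b, HTSeq and GRCm38.p4 are named in the submitters' processing notes. The annotation used is not given in the sources used here. Column 4 was used, as its gene counts were 20.87 to 24.93 times those of column 3. Of 47729 genes 47310 matched GENCODE M21, the source of symbols and lengths. Summary rows stayed out of library sizes and tests: unmapped, multimapping, no feature and ambiguous reads were 6.453 to 7.552%, 4.505 to 4.541%, 7.727 to 9.982% and 1.104 to 1.129% of reads.

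CPM are unscaled. Genes kept by filterByExpr were tested with edgeR 4.0.16 (quasi-likelihood, TMM factors, R 4.3.3) on all genes, two-sided, and adjusted by Benjamini-Hochberg at 0.05. Standard errors come from the F statistic. DESeq2 1.42.0, other scaling, no filter, unstranded counts (column 2), the male fraction and each library left out were alternatives. The test was also run on simulated data, where wrong calls made up more of its calls than the threshold allows. Promoters are from RefSeq.

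The RGS genes and lists were chosen with earlier results of these data known. Always named were all RGS genes; of each other pathway list, up to 5 genes past the threshold and the most abundant; of each marker list, the most abundant; the 5 genes nearest to Rgs5 in log2 CPM (prior count 2, mean of at least 1 CPM); and the neighbours of Rgs5. Other markers and the unchanged pathway genes given with values were picked as examples after their values were seen. Chi-square between the replicates was 16 per gene in normoxia and 78.89 after treatment, so no library was taken for a repeat deposit of another.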

Additional observations from a re-analysis of the deposited data

Results flagged for a closer look

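Rgs5 had reads on the opposite strand, which the comparisons do not use, above the normoxic level: 24 and 16 reads in Sugen-hypoxic replicates 1 and 2 against 2 and 6 in normoxic replicates 1 and 2. They were 0.691 and 0.336% of the Rgs5 reads of the strand used after treatment and 0.229 and 0.966% in normoxia, so the share overlapped between the groups.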

How the results depend on the processing

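With 2 pools per group, the length of the gene list depended on which group lost a library. It fell when either normoxic library was left out and grew when either treated library was. The 2163 genes called (1035 higher, 1128 lower) became 25 (17 and 8) without normoxic replicate 1, 113 (55 and 58) without normoxic replicate 2, 5101 (2663 and 2438) without treated replicate 1 and 4777 (2323 and 2454) without treated replicate 2. DESeq2 called 3254 (1651 higher), the fit with no expression filter 3657 (1775 and 1882), and the fit with the male fraction as a covariate, which has 1 residual degree of freedom, 11 (4 and 7). Upper-quartile factors gave 799 higher and 1424 lower, and library size alone 765 and 1584. The 15 called genes of the G-protein lists became 23 with DESeq2, 23 with no filter and 0 with the male fraction, and ran from 0 to 31 with a library left out. The 35 called markers became 0 with the male fraction and ran from 0 to 57 with a library left out (33 had an unadjusted p under 0.05 with the male fraction and 46 without normoxic replicate 1). Of these 50 calls 50 were kept with RLE factors, DESeq2, no filter and unstranded counts, 45 with upper-quartile factors, 46 with library size alone, 0 without normoxic replicate 1 and 6 without normoxic replicate 2, and 0 turned direction. The log2 fold change of Rgs5 went from 2.56 to 2.87 ± 0.22 (SE) with the male fraction. That fit takes its sex effect from the normoxic pair alone, as both treated pools were all male, so its values are not results freed of sex. With the longest transcript as the length, 6 of 10 genes kept their place in the normoxic order. Each fit with a library left out also has 1 residual degree of freedom, and its spread comes only from the group that keeps 2 libraries. Chi-square between the replicates was 16 per gene in normoxia and 78.89 after treatment. The cause of the shifts under these settings was not tested. No paired analysis was possible because the labels give no replicate numbers that join libraries of the 2 groups.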
